A study of Mus musculus with 11 samples.

Results

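Embryonic globins and other red cell genes were followed across the 11 arrays by every probe set that the platform annotation gives to the genes Hbb-y, Hbb-bh1, Hba-x, Alas2, Hemgn, Ahsp, Klf1 and Epor. Of these 8 genes, 7 had at least 1 probe set, and together they held 11 of the 45037 probe sets tested. Ahsp was not analysed here. Each sample was RNA of mouse kidney of embryonic day 17, hybridised to 1 Affymetrix expression array, and the groups are named by their titles and source labels. The R2NB group held 3 Robo2 homozygous arrays (replicates 3, 4 and 5), and the sources used here do not say what NB stands for. The R2E17 group held 1 Robo2 homozygous array (replicate 6) and 1 wild-type array (replicate 3). The E17R2 group held 3 Robo2 homozygous arrays (replicates 2, 8 and 9) and 3 wild-type arrays (replicates 1, 3 and 7). The labels give no Robo2 allele, strain or sex, and do not say how many embryos went into a sample, so the p-values below describe only how these samples vary, in part perhaps for technical reasons.

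In the mouse, the first red cells form in the yolk sac and carry embryonic globins. Hbb-y and Hbb-bh1 encode embryonic beta-like chains and Hba-x encodes the embryonic alpha-like zeta chain. Red cells made later in the fetal liver and then in the bone marrow carry adult alpha and beta chains, so embryonic globin transcripts in an organ are read as a trace of the earlier red cells in its blood. The other members serve red cells of either kind. Alas2 encodes the first enzyme of haem synthesis in red cell precursors, Klf1 an erythroid transcription factor that binds CACCC boxes, Hemgn the nuclear protein hemogen of blood progenitors and precursors, and Epor the receptor for erythropoietin.

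The deposited values fell into 2 sets of arrays with different distributions. The R2E17 and R2NB arrays had median intensities of 47.1 to 53.4, and the E17R2 arrays had medians of 23.4 to 24.6. Levels are therefore given as log2 of the intensity minus the array's own median, so that 0 is the middle probe set of that array. The title series and the value distribution change together, so neither can be told apart from a difference between the animals. At 4 significant digits, 6 of the 11 member probe sets had the same intensity on at least 2 of the R2E17 and R2NB arrays, against 0 of 11 on the E17R2 arrays. The only Robo2 probe set tested, whose place relative to the mutation is not given, lay at -2.55 to -2.22 on the E17R2 homozygous arrays and at -1.46 to -0.87 on the E17R2 wild-type arrays. In the other set it lay at -2.27 to -1.75 on the R2NB arrays, at -2.27 on the R2E17 homozygous array and at -1.77 on the R2E17 wild-type array, so 1 R2NB array was above the wild-type one. A list of 13 kidney epithelial genes averaged 4.89 to 5.02 on the R2E17 and R2NB arrays and 2.88 to 4.17 on the E17R2 arrays. A list of 12 brain genes averaged -1.79 to -1.11 and -1.14 to -0.37 on the same sets. Single arrays stood apart in a list of 15 hepatocyte genes, which averaged 5.23 on R2NB replicate 4, 3.86 on E17R2 wild-type replicate 7 and 2.94 on E17R2 homozygous replicate 2. The other 8 arrays lay between 0.69 and 1.61.

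The sequence just before the start of a gene is shown for the members whose values the results turn on, as the 250 bases upstream of the start in RefSeq's table for GRCm38.p6, read on the strand of the gene. Capitals mark matches, on either strand, to a GATA site (AGATAA, else TGATAA, else AGATAG, else TGATAG) and to the CACCC box, the letters known to be bound by Gata1 and Klf1. Hbb-y and Hba-x are shown because both were lower on the R2E17 and R2NB arrays, and Hemgn and Klf1 because they varied together between arrays.
Hbb-y, chr7:103853208-103853457, minus strand: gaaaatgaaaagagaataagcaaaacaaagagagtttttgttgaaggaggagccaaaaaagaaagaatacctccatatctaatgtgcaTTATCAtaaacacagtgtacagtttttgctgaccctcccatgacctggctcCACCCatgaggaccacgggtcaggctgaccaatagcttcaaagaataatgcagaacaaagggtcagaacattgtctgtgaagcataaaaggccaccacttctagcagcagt
Hba-x, chr11:32276350-32276599, plus strand: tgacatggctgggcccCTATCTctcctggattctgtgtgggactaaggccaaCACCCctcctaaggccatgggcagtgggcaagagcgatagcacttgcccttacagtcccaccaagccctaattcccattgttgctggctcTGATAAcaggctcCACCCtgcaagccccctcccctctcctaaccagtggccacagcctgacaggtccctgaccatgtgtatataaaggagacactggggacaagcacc
Hemgn, chr4:46404184-46404433, minus strand: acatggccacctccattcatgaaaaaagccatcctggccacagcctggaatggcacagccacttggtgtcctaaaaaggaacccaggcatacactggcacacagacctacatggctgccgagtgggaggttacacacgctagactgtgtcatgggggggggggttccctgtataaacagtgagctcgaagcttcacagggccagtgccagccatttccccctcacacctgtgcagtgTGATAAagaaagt
Klf1, chr8:84901732-84901981, plus strand: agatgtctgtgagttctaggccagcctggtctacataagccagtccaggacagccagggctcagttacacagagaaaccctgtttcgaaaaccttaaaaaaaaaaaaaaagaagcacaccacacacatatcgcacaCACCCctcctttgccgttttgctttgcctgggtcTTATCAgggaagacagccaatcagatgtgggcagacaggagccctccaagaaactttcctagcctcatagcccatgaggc

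Of the 7 measured members, 6 had a promoter in the table (Hbb-y, Hba-x, Alas2, Hemgn, Klf1 and Epor). All 6 held a GATA site in this window, a motif found in 26.5% of the 32851 promoters of the same length. A CACCC box was found in 5 of the 6, against 52.0% of all promoters, and Hemgn was the one without these letters. In Hbb-y the GATA match lay at positions -162 to -157 from the start and the CACCC box at -111 to -107. In Hba-x the nearer GATA match lay at -108 to -103 and the nearer CACCC box at -95 to -91. In Klf1 the 2 motifs stood at -80 to -75 and -114 to -110, and the GATA match of Hemgn was at -13 to -8. A TATA-like box (TATAAA or else CATAAA) lay 29 bases before the start of Hbb-y and 28 before that of Hba-x, and such a box was found in 20.9% of all promoters. These are matches of letters and show no binding.

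Hbb-y, the embryonic epsilon-type beta globin, was far lower on the R2E17 and R2NB arrays than on the E17R2 arrays by each of its 3 probe sets. Probe set 1436717_x_at read -2.26, -2.52 and -1.99 on the R2NB arrays, -0.95 on the R2E17 homozygous array and -1.84 on the R2E17 wild-type array, against 3.34, 3.17 and 3.26 on the E17R2 homozygous arrays and 3.47, 3.53 and 3.32 on the E17R2 wild-type arrays. All 5 arrays of the first set lay below the array median and all 6 E17R2 arrays lay well above it, with no overlap. Probe set 1436823_x_at gave -2.45, -2.65 and -1.76 in R2NB, -0.46 in R2E17 homozygous and -1.85 in R2E17 wild-type, against 3.30, 3.19 and 3.16 in E17R2 homozygous and 3.47, 3.45 and 3.16 in E17R2 wild-type. The suffix of both probe sets marks possible cross-hybridisation with related transcripts. The third, 1450621_a_at, does not carry that mark. It read -1.80, -1.77 and -1.80 in R2NB, -1.26 in R2E17 homozygous and -1.79 in R2E17 wild-type, against 2.67, 2.61 and 2.55 in E17R2 homozygous and 2.49, 2.75 and 2.64 in E17R2 wild-type. Its deposited intensity was the same, 15.4, on 3 of the 5 arrays.

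The set contrast, R2E17 and R2NB minus E17R2 with genotype as a covariate, was tested with limma over all 45037 probe sets. For Hbb-y it came to -5.21 ± 0.24 (SE), -5.09 ± 0.33 and -4.31 ± 0.11 on the log2 scale for the 3 probe sets in the order above, or 37.1-fold, 34.2-fold and 19.9-fold lower (5 against 6 arrays). These folds are ratios of deposited intensities. Detection calls were not used, and the distance of the low values from background is not known, so the folds are not exact. Their adjusted p-values from limma were 3.104e-07, 1.472e-06 and 5.616e-09. By size of difference these were the second, the third and the fourth of all probe sets counted from the lowest. Differences between the sets were widespread: 37.5% of all probe sets were called lower and 26.7% had every R2E17 and R2NB array below every E17R2 array. Over all probe sets the median difference was -0.13, and the 5th percentile was -0.93 and the 1st percentile -1.30. Of the 11 member probe sets, 9 were called lower and 0 higher, and 7 did not overlap between the sets. In bulk tissue, fewer red cells of a kind and less RNA per cell cannot be told apart.

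Hba-x, the zeta chain, was lower as well, by less than Hbb-y. Probe set 1448716_at read -0.48, -0.62 and -0.54 on the R2NB arrays, -0.43 on the R2E17 homozygous array and -0.65 on the R2E17 wild-type array. The E17R2 homozygous arrays gave 1.57, 1.21 and 1.79 and the E17R2 wild-type arrays 1.47, 1.96 and 1.36. The sets did not overlap, and within each set the spread was narrow (SD 0.09 over 5 arrays and 0.28 over 6). The difference was -2.10 ± 0.14 (SE), a 4.29-fold lower intensity with an adjusted p of 1.349e-06 from limma, and it ranked 52 from the lowest of all probe sets.

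Hbb-bh1, the embryonic beta-h1 globin, lay below the array median on every array of both sets. It was still lower on the R2E17 and R2NB arrays, without overlap, by all 3 probe sets. Probe set 1437990_x_at read -2.53, -2.77 and -2.80 in R2NB, -2.78 in R2E17 homozygous and -2.79 in R2E17 wild-type, against -1.24, -1.86 and -1.55 in E17R2 homozygous and -1.55, -1.50 and -1.01 in E17R2 wild-type. Probe set 1450736_a_at read -1.90, -2.05 and -2.14 in R2NB, -1.98 in R2E17 homozygous and -2.33 in R2E17 wild-type, against -0.76, -1.24 and -1.14 in E17R2 homozygous and -1.15, -1.22 and -1.17 in E17R2 wild-type. For 1437810_a_at the values were -1.52, -1.68 and -1.94 in R2NB, -1.61 in R2E17 homozygous and -1.94 in R2E17 wild-type, against -1.15, -1.35 and -0.90 in E17R2 homozygous and -0.998, -1.01 and -0.39 in E17R2 wild-type. The differences were -1.25 ± 0.14, -1.02 ± 0.10 and -0.73 ± 0.16 (SE), with adjusted p-values from limma of 2.403e-05, 9.556e-06 and 0.002267. The last of them lay inside the range from the 5th to the 95th percentile of all probe sets, -0.93 to 0.78. Within their arrays, the 3 probe sets stood at percentiles 9.25 to 28.4 on the R2E17 and R2NB arrays and at 17.9 to 44.7 on the E17R2 arrays. Over all probe sets 65.8% of calls were lower, against 40.3% when only those above the array median were tested. The part of this imbalance in the Hbb-bh1 differences was not tested.

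**Figure D1:**
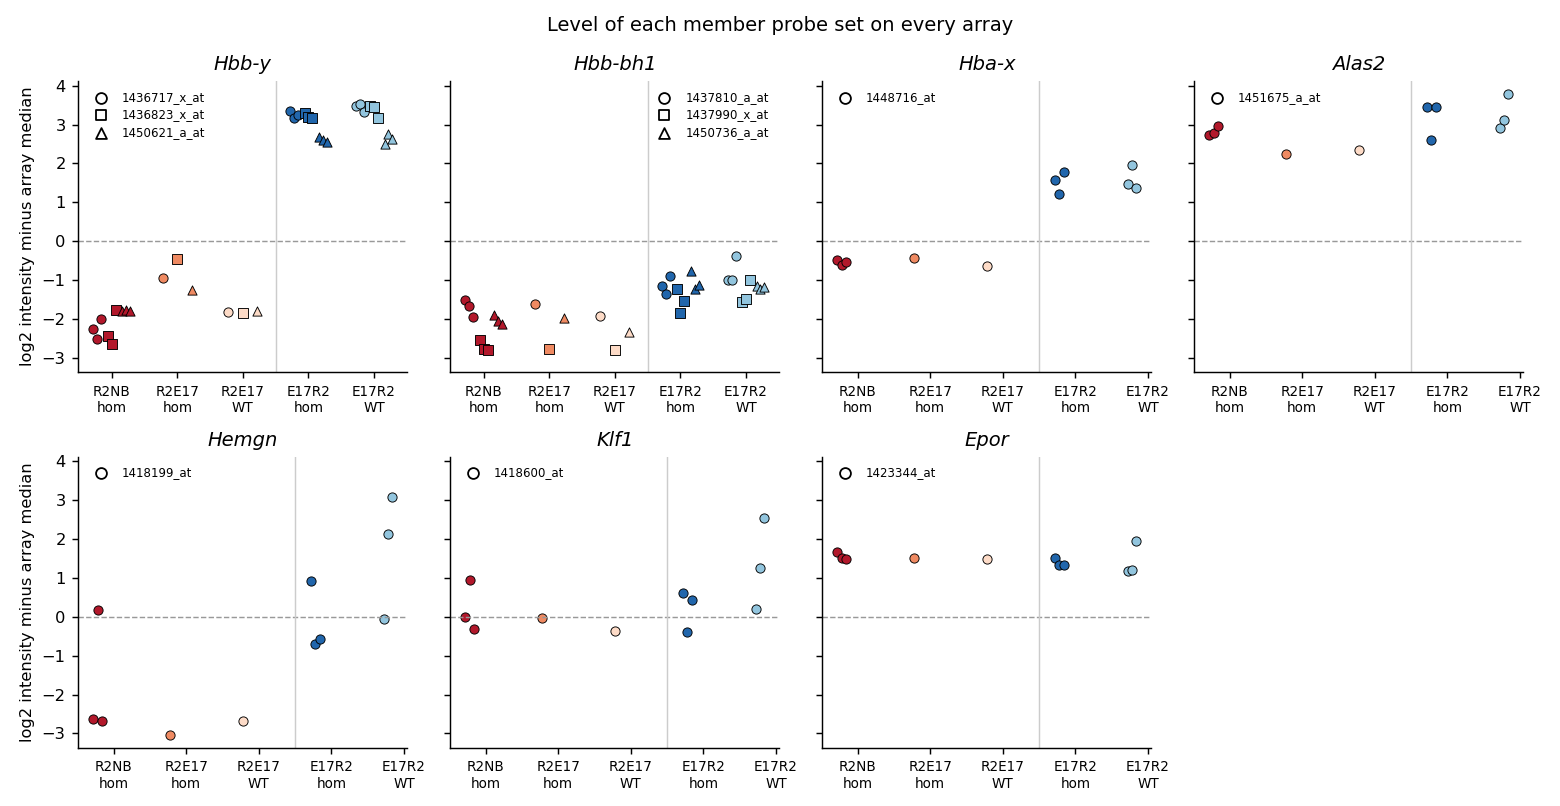
Level of each of the 11 member probe sets on every array, as log2 intensity minus the array median (vertical axis, the same in all panels), with 1 panel a gene, 1 point an array and 1 marker shape a probe set. The groups run from R2NB homozygous (hom) through R2E17 homozygous and R2E17 wild-type (WT) to E17R2 homozygous and E17R2 wild-type, and the grey line divides the 2 sets of arrays. Hbb-y and Hba-x sit below 0 on the R2E17 and R2NB arrays and above 0 on the E17R2 arrays, and Hbb-bh1 sits below 0 on both. Alas2, Hemgn, Klf1 and Epor overlap between the sets. Of all probe sets, 26.7% had every R2E17 and R2NB array below every E17R2 array.

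The members that serve red cells of either kind did not separate the sets: 0 of their 4 probe sets were free of overlap. Of all probe sets, 26.7% had every R2E17 and R2NB array below every E17R2 array, so 0 of 4 is not far from that share. Alas2, by probe set 1451675_a_at, was well above the array median on all 11 arrays, at 2.74, 2.79 and 2.97 in R2NB, 2.24 in R2E17 homozygous and 2.35 in R2E17 wild-type, against 3.46, 2.61 and 3.46 in E17R2 homozygous and 2.90, 3.11 and 3.78 in E17R2 wild-type. The difference of -0.62 ± 0.22 (SE) passed the threshold with an adjusted p of 0.03193 from limma. The call was lost without R2E17 wild-type replicate 3 (adjusted p 0.1463 from limma), R2E17 homozygous replicate 6 (0.0658), E17R2 homozygous replicate 2 (0.08334) or E17R2 homozygous replicate 9 (0.08097).

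Epor, by probe set 1423344_at, was nearly level. It read 1.66, 1.51 and 1.49 in R2NB, 1.51 in R2E17 homozygous and 1.48 in R2E17 wild-type, against 1.52, 1.33 and 1.33 in E17R2 homozygous and 1.17, 1.21 and 1.94 in E17R2 wild-type. The sets overlapped, and the difference of 0.11 ± 0.14 (SE) had an adjusted p of 0.4976 from limma.

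Hemgn, by probe set 1418199_at, had the widest spread of the members within each set of arrays (SD 1.32 over the 5 R2E17 and R2NB arrays and 1.54 over the 6 E17R2 arrays). It was at -2.62, 0.17 and -2.68 in R2NB, -3.03 in R2E17 homozygous and -2.68 in R2E17 wild-type, against 0.93, -0.71 and -0.57 in E17R2 homozygous and -0.05, 2.14 and 3.09 in E17R2 wild-type. On 4 of the 5 R2E17 and R2NB arrays it lay below every E17R2 array, and on R2NB replicate 4 it lay within their range. The difference was -2.68 ± 0.78 (SE) with an adjusted p of 0.01155 from limma. Without R2E17 wild-type replicate 3 it came to -1.93 with an adjusted p of 0.0863 from limma, which did not pass the threshold. Without R2NB replicate 4 it came to -3.24.

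Klf1, by probe set 1418600_at, read -0.01, 0.94 and -0.32 in R2NB, -0.02 in R2E17 homozygous and -0.36 in R2E17 wild-type, against 0.61, -0.38 and 0.44 in E17R2 homozygous and 0.20, 1.27 and 2.54 in E17R2 wild-type. The highest array of each set was the same as for Hemgn. The difference of -0.57 ± 0.45 (SE) had an adjusted p of 0.3043 from limma, and the sets overlapped.

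Set side by side, all 7 embryonic globin probe sets were called lower, with a median difference of -2.10. The Hbb-bh1 probe sets among them lay below the array median on every array. Of the 4 probe sets of Alas2, Hemgn, Klf1 and Epor, 2 were called lower, with a median of -0.59. Among all probe sets 37.5% were called lower. Taking the brightest probe set of each gene and plain differences between set means, without the genotype covariate of the other differences here, the mean was -2.67 for the 3 embryonic globins and -1.05 for the 4 other genes. The embryonic globins thus stood 1.62 further down on the log2 scale (value -1.62, with a pooled SD within the sets of 0.69 for this quantity on single arrays). This is a description of the members, with no test. The gap came to -1.52 when the 11 arrays were quantile normalized together. Among the embryonic globins the Hbb-y differences were the largest, and the Hbb-bh1 differences of -1.25 to -0.73 lay between those of Hemgn and Alas2.

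**Figure D2:**
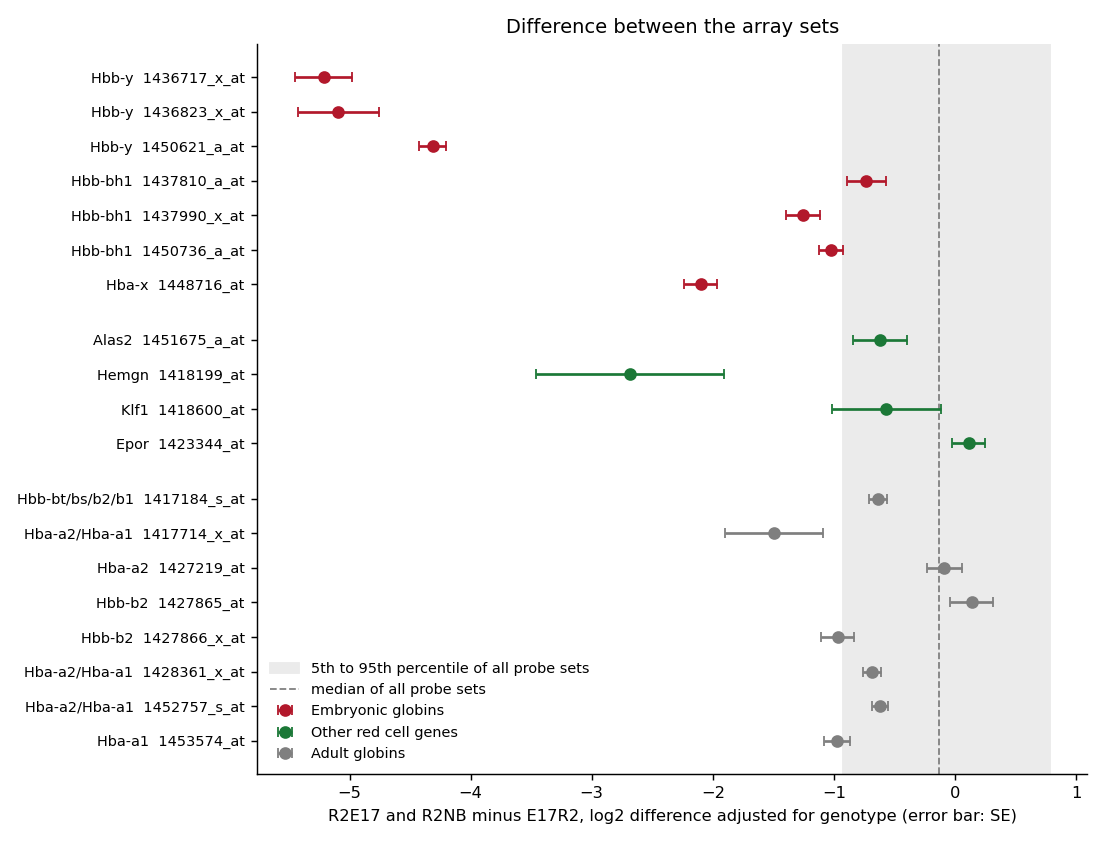
Difference between the array sets, R2E17 and R2NB minus E17R2 on the log2 scale with genotype as a covariate (horizontal axis), for each probe set of the embryonic globins (red), the other red cell genes (green) and the adult globins (grey). Points are limma estimates, bars their SE, the grey band spans the 5th to 95th percentile of all probe sets (-0.93 to 0.78) and the dashed line is their median. The 3 Hbb-y probe sets lie near -5.21, -5.09 and -4.31, to the left of every other probe set drawn.

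Adult globin transcripts were measured by 8 probe sets, several of which match more than 1 gene. The 4 that match several adult genes were among the brightest on every array, at percentiles from 97.3 upward. One that matches the adult beta genes, 1417184_s_at, averaged 8.03 ± 0.13 (SD, n = 5) on the R2E17 and R2NB arrays and 8.64 ± 0.06 (SD, n = 6) on the E17R2 arrays. Its difference was -0.64 ± 0.07 (SE) with an adjusted p of 3.173e-05 from limma. A probe set of the adult alpha genes, 1452757_s_at, averaged 8.24 ± 0.08 and 8.84 ± 0.05 (SD, n = 5 and 6) and differed by -0.62 ± 0.07 (SE), with an adjusted p of 1.74e-05 from limma. In all, 6 of the 8 were called lower and 0 higher, with differences of -1.50 to -0.62 among those called. Under joint quantile normalization 5 of the 8 were called lower, and the 2 differences above shrank to -0.29 and -0.23. That method gives equal ranks equal values, so it draws together probe sets at the top of every array. For these 2 the shrinkage is therefore no check. Saturation of probe sets this close to the top of the array was not tested. The Hbb-y differences were -5.51 at the lowest and -4.15 at the highest over all alternatives tried.

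Lists of genes that work with the members were counted with 1 probe set a gene, against a background of 32.2% of 18193 genes called lower and 22.3% called higher. Of the same 18193 genes, joint quantile normalization called 5010 lower and 3947 higher. Scaling to the 75th percentile called 7589 lower and 3252 higher. Of 21 measured red cell membrane genes, 10 were called lower and 4 higher (median difference -0.44, against -0.07 for all genes), and joint quantile normalization left 6 lower and 3 higher. Xk, which carries the Kx blood group antigen, fell by 0.58 and Slc43a1, an amino acid transporter, fell by 0.83, whereas Bcam, a laminin-binding adhesion protein also present outside the blood, rose by 1.29 and Dmtn, the actin-bundling dematin, by 0.85. Of 23 genes of haem synthesis and iron supply, 9 were called higher and 4 lower (median 0.12). Tspo2, an erythroid cholesterol-binding protein, fell by 0.999, while Steap3, an iron reductase, rose by 0.80 and the haem transporter gene Slc48a1 by 0.89.

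Of 25 erythroid transcription factor genes, 5 were called higher and 3 lower (median 0.08), and 3 and 4 when arrays were scaled to the 75th percentile. Gata1, the central erythroid GATA factor, was among the lower ones: it averaged -2.05 ± 0.29 (SD, n = 5) on the R2E17 and R2NB arrays and -0.36 ± 0.58 (SD, n = 6) on the E17R2 arrays, a difference of -1.56 ± 0.25 (SE) with an adjusted p of 0.0002447 from limma. Bcl11a, a repressor of embryonic-type globin genes, fell by 0.49. Zbtb7a, another globin repressor, rose by 1.15 and Ldb1, a cofactor of Gata1 complexes, by 0.50. Of 22 genes of late red cell maturation, 8 were called higher and 5 lower (median 0.11). Of 18 genes of the erythropoietin pathway, 6 were called higher and 4 lower (median 0.20), and 4 and 5 under quantile normalization. In that list Cish, a target and feedback inhibitor of cytokine receptor signalling, rose by 1.24 and Socs2, a related inhibitor, by 1.91. Socs3, of the same family, fell by 0.67. Epas1, the hypoxia-inducible factor HIF-2 alpha, rose by 0.90.

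Lists of other cell types were counted in the same way. Of 13 kidney epithelial genes 11 were called higher and 0 lower (median difference 1.59), of 16 endothelial genes 10 were higher and 0 lower (0.46), and of 14 platelet genes 1 was higher and 6 lower (-0.27). Of 12 lymphocyte genes, 2 were higher and 6 lower, of 15 macrophage genes 5 and 1, of 14 granulocyte genes 2 and 2, and of 15 hepatocyte genes 1 and 1. Joint quantile normalization gave 4 higher and 3 lower lymphocyte genes, 2 and 1 macrophage genes, 3 and 0 granulocyte genes, and 1 and 0 hepatocyte genes. Of 17 genes of red cell clearance, 4 were higher and 3 lower. The part of these cell types in the globin differences was not tested.

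Within the sets, Hemgn and Klf1 varied together. After the mean of its set was taken from each array, their Pearson r was 0.91 over the 11 arrays, a description of arrays that share a set and a normalization. On the same measure, taken for the brightest probe set of each gene, Hbb-y had an r of -0.36 with Hemgn and -0.21 with Klf1. Hbb-bh1, by 1437810_a_at, had 0.81 with Klf1. On E17R2 wild-type replicate 7, with the highest Klf1, this probe set read -0.39 and 1437990_x_at read -1.01, each its highest value. There 1450736_a_at read -1.17, below its -0.76 on E17R2 homozygous replicate 2. The r of these other Hbb-bh1 probe sets was not taken. On R2NB replicate 4, with the highest Hemgn and Klf1 of its set, Hbb-y by 1436823_x_at was the lowest of all 11 arrays at -2.65, as it was by 1436717_x_at at -2.52. By 1450621_a_at, which carries no mark of cross-hybridisation, the same array read -1.77, and the range of the R2NB arrays was only -1.80 to -1.77. Its deposited intensity by this probe set, 15.36, was the same on R2NB replicate 5, so the order of these arrays came with the centring. The genes most like the mean of Alas2, Hemgn, Klf1 and Epor by this r were Rhag (0.98), Slc4a1 (0.98), Icam4 (0.97), Ermap (0.97), Rhd (0.96), Cldn13 (0.95), Sptb (0.93) and Trim10 (0.93). All 8 stood in the red cell lists and 7 of them in the membrane list. Slc4a1 encodes the band 3 anion exchanger, Rhag and Rhd belong to the Rh complex, and Sptb is the red cell beta spectrin. The 8 genes most like the mean of the embryonic globins, led by Hoxd12 (0.93), Tecrl (0.91) and Myhas (0.88), included 0 from the red cell lists. The embryonic globins themselves hardly varied together: r was -0.05 for Hbb-y and Hbb-bh1, 0.22 for Hbb-y and Hba-x and 0.13 for Hbb-bh1 and Hba-x. Their mean leans on the R2E17 homozygous array, where Hbb-y by 1436823_x_at was -0.46, against -2.65 to -1.76 on the rest of its set. Myhas was -0.53 there, against -2.77 to -2.09, and Hoxd12 -1.93, against -2.81 to -2.50.

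The hepatocyte list was also highest on arrays with much Hemgn and Klf1, and the liver is the main red cell forming organ of the fetus. Albumin (Alb) read 8.05 on R2NB replicate 4, 8.01 on E17R2 wild-type replicate 7 and 6.87 on E17R2 homozygous replicate 2, and no more than 5.23 on the other 8 arrays. Hemgn was 0.17, 3.09 and 0.93 on these 3 arrays. E17R2 wild-type replicate 3 had Hemgn at 2.14 and Klf1 at 1.27, with the hepatocyte list at 1.48 and Alb at 4.58, within the range of the remaining arrays. A list of 14 granulocyte genes was highest on R2NB replicate 4 as well, at 1.88, against -0.05 to 0.66 elsewhere. The part of these markers in the Hemgn and Klf1 values was not tested. R2NB replicate 4 and E17R2 wild-type replicate 7 were also left out together, a choice made after the data were seen. Then 9 of the 11 member probe sets were still called, against 23518 of all 45037 probe sets, and the Hemgn difference was -2.99.

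**Figure D3:**
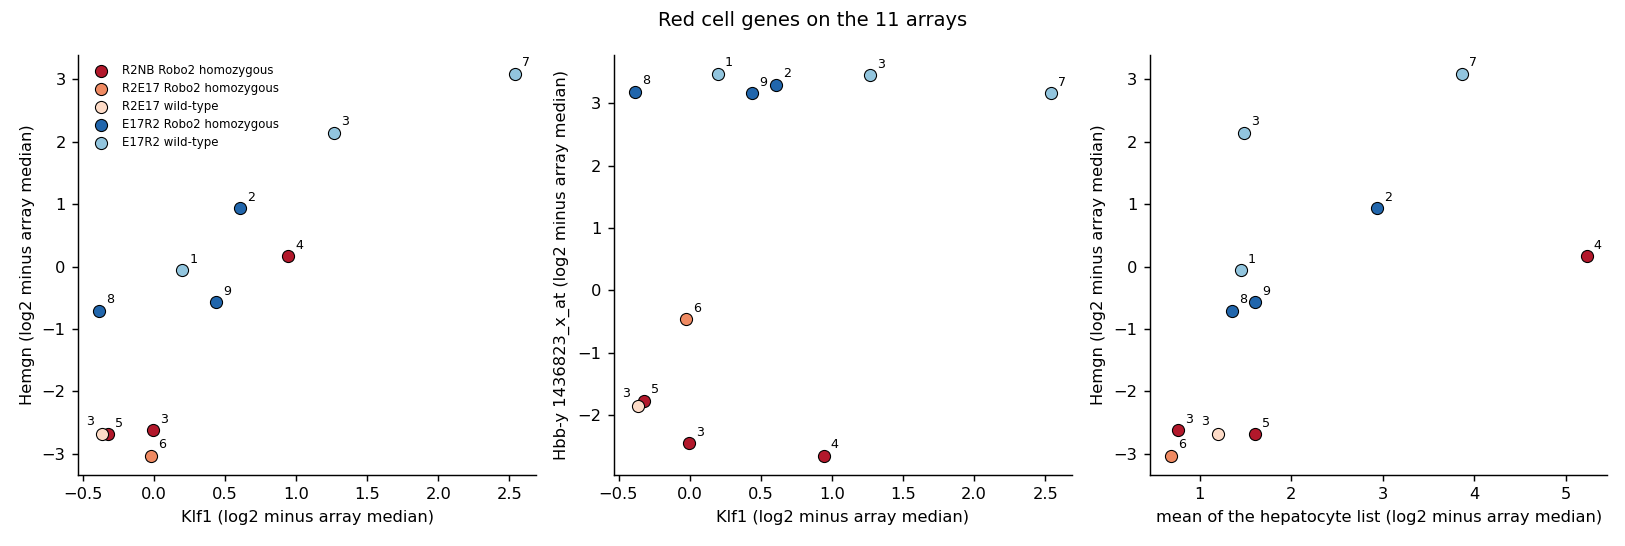
Red cell genes on the 11 arrays, all axes in log2 intensity minus the array median, 1 point an array, labelled by replicate number and coloured by group. On the left, Hemgn against Klf1; in the middle, Hbb-y by 1436823_x_at against Klf1; on the right, Hemgn against the mean of the hepatocyte list. Hbb-y falls into 2 bands, -2.65 to -0.46 with Klf1 from -0.36 to 0.94, and 3.16 to 3.47 with Klf1 from -0.38 to 2.54. The rightmost arrays of the right panel are R2NB replicate 4 at 5.23 and E17R2 wild-type replicate 7 at 3.86.

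Robo2 homozygous and wild-type kidneys were compared within the E17R2 arrays, 3 against 3. No member passed the test. Hbb-y by 1436717_x_at averaged 3.26 ± 0.08 in homozygous and 3.44 ± 0.11 in wild-type kidneys, and Hba-x averaged 1.52 ± 0.29 and 1.60 ± 0.32 (SD, n = 3 each). Their differences were -0.18 ± 0.10 and -0.08 ± 0.20 (SE). Hbb-bh1 by 1437810_a_at averaged -1.13 ± 0.23 in homozygous and -0.80 ± 0.35 in wild-type kidneys (SD, n = 3 each), a difference of -0.34 ± 0.20 (SE), and its other probe sets 1437990_x_at and 1450736_a_at differed by -0.19 ± 0.20 and 0.13 ± 0.14 (SE). Hemgn averaged -0.11 ± 0.91 in homozygous and 1.73 ± 1.61 in wild-type kidneys, and Klf1 averaged 0.22 ± 0.53 and 1.33 ± 1.17 (SD, n = 3 each), and the genotypes overlapped for both genes. The Hemgn difference of -1.84 ± 0.77 (SE) had an unadjusted p of 0.0459 and an adjusted p of 0.9418 from limma. For Klf1 the difference of -1.11 ± 0.54 (SE) had an unadjusted p of 0.07552 and the same adjusted p from limma. By limma, 0 of the 11 member probe sets passed the threshold, against 0.0% of all probe sets, and 1 of 11 had an unadjusted p under 0.05.

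These Hemgn and Klf1 values rest on single arrays. Without E17R2 wild-type replicate 7 the differences came to -1.16 for Hemgn and -0.51 for Klf1, and without E17R2 wild-type replicate 1 to -2.73 and -1.68. Of the 11 differences 10 were below 0, though that of Epor, at -0.05, turned to 0.01 when arrays were scaled to the 75th percentile. The median of all probe sets was below 0 as well, and probe sets of 1 gene are not independent, so this count is no test. None of the 11 (0) separated the genotypes without overlap, against 10.4% of all probe sets. The median was -0.15 over the embryonic globin probe sets and -0.60 over the other members, against -0.02 over all probe sets, whose 5th and 95th percentiles were -0.30 and 0.27. Alas2 differed by -0.09 ± 0.29 (SE), which turned to 0.17 without E17R2 wild-type replicate 7. In the lists of other red cell genes, limma also called 0 genes. Lists of other cell types leaned the same way with 0 genes called: kidney epithelial genes were below 0 in 13 of 13 (median -0.65), endothelial genes in 15 of 16 (-0.22) and hepatocyte genes in 14 of 15 (-0.32). The kidney epithelial list averaged 2.88 on E17R2 homozygous replicate 9 and 3.73 to 4.17 on the other E17R2 arrays. Without that array the Hemgn difference was -1.61 and that of Klf1 -1.22. The part of these lists in the members' values was not tested.

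The R2E17 pair has 1 array a genotype and no replicate check. Hbb-y was higher in the homozygous than in the wild-type kidney, by 0.88, 1.39 and 0.53 for 1436717_x_at, 1436823_x_at and 1450621_a_at, against a median of 0.09 and a range from the 5th to the 95th percentile of -0.64 to 0.77 over all probe sets. Hbb-bh1 differed by 0.33, 0.01 and 0.35, for 1437810_a_at, 1437990_x_at and 1450736_a_at, and Hba-x by 0.21. The other members differed by -0.35 (Hemgn), -0.11 (Alas2), 0.34 (Klf1) and 0.03 (Epor). In a fit where the lone arrays are assumed to vary like the other groups, the Hbb-y difference of the pair exceeded that of the E17R2 arrays by 1.07 ± 0.28, 1.53 ± 0.41 and 0.55 ± 0.20 (SE). These had unadjusted p-values of 0.003451, 0.003908 and 0.0218 and adjusted p-values of 0.2388 to 0.3595 from limma, so 0 of the 11 were called, against 0.00888% of all probe sets.

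**Figure D4:**
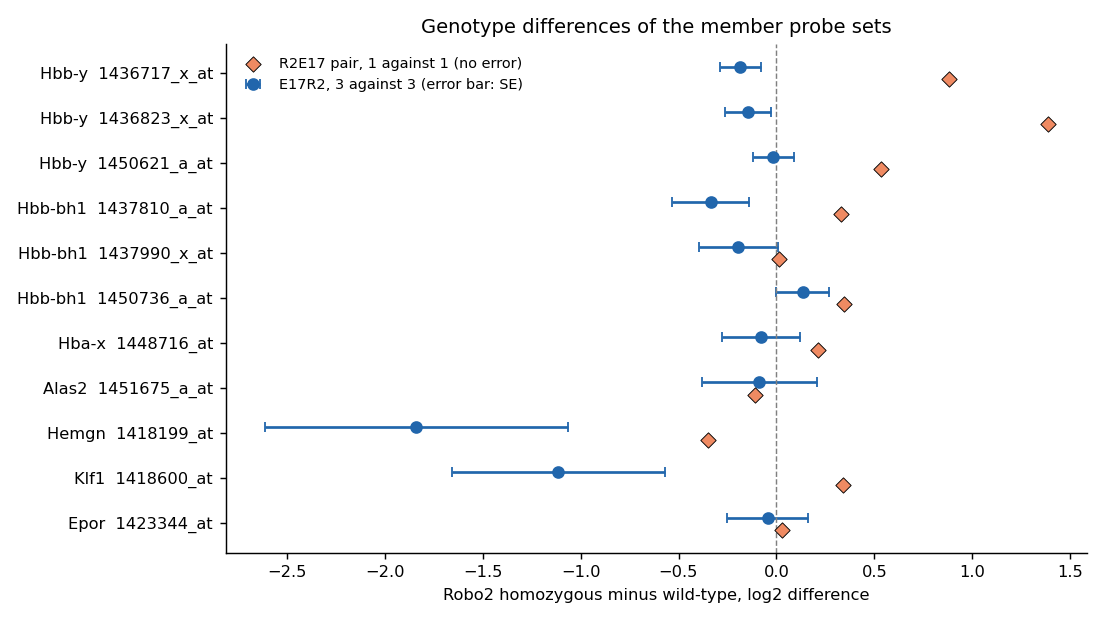
Robo2 homozygous minus wild-type on the log2 scale (horizontal axis) for the 11 member probe sets, in the E17R2 arrays (blue points, 3 against 3, bars are SE) and in the R2E17 pair (orange diamonds, 1 against 1, with no error). The widest bars belong to Hemgn at -1.84 and Klf1 at -1.11, and the Hbb-y diamonds lie at 0.88, 1.39 and 0.53.

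The R2E17 homozygous array also read higher than each R2NB array by all 3 Hbb-y probe sets. The R2NB arrays share its genotype label and value distribution. R2NB minus R2E17 homozygous, 3 arrays against 1 in a fit where the lone array is assumed to vary like the other groups, was -1.30 ± 0.20, -1.83 ± 0.29 and -0.53 ± 0.14 (SE) for 1436717_x_at, 1436823_x_at and 1450621_a_at. The adjusted p-values from limma were 0.3158, 0.378 and 1.0, against unadjusted values of 6.688e-05, 9.761e-05 and 0.004285. None of the 11 (0) passed the threshold, against 0.0111% of all probe sets, and 3 had an unadjusted p under 0.05. For Hba-x the same difference was -0.11 ± 0.26 and for Alas2 0.59 ± 0.38 (SE). The arrays titled R2NB and R2E17 therefore lay on the same side of the E17R2 arrays for every embryonic globin probe set, with Hbb-y highest on 1 of the 5.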

How the data were processed

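The table deposited by the authors holds linear intensity values, for which the submitters' processing notes name RMA without a version. The design had allowed for log2 values, and log2 of the deposited intensity minus the array median was taken, with no pseudocount. Of 45101 probe sets 64 controls were left out. The platform annotation gave 1 symbol to 34945 of the others, several to 932 and none to 9160, and 34741 were matched to RefSeq. The tests were 2-sided and used lmFit and eBayes of limma 3.58.1 (R 4.3.3), with Benjamini-Hochberg adjustment over all 45037 probe sets and a threshold of 0.05, and the fits were tested on simulated data. The set contrast used 11 arrays with genotype as a covariate, and the genotype comparison the 6 E17R2 arrays. The number of arrays limits the precision.

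Members, lists and tests were chosen with earlier results of these data known. All probe sets of the members are named. Others could be named from the adult globins, Robo2, the 4 genes of each list with the smallest p in a comparison, called or not, and the 8 genes most like the embryonic globins or the other members. A gene in a list was represented by its probe set with the highest mean. Detection calls were not used here. Free-text labels that speak of human brain contradict the organism and tissue labels, which were followed. Alternatives were joint quantile normalization, the 75th percentile, a filter at the array median, trend and robust settings, 1 probe set a gene, other covariates or groups, and leaving out each array.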

Additional observations from a re-analysis of the deposited data

Results flagged for a closer look

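Within a set of arrays, 6 single values stood far from the others by Dixon's test at the 95% level, which chance alone meets in about 1 in 20 groups. R2NB replicate 4 had Hemgn at 0.17, against -3.03 to -2.62 on the other 4 arrays of its set, and Klf1 at 0.94, against -0.36 to -0.01. This array also had the highest hepatocyte list of all, at 5.23, and the part of that in both values was not tested. The R2E17 homozygous array (replicate 6) had Hbb-y by 1450621_a_at at -1.26, against -1.80 to -1.77 on the others. R2NB replicate 3 had Hbb-bh1 by 1437990_x_at at -2.53, against -2.80 to -2.77, and Epor at 1.66, against 1.48 to 1.51. For Hbb-y by 1450621_a_at and Hbb-bh1 by 1437990_x_at, 3 of the 5 arrays had the same deposited intensity, which narrows the range of the others. For Epor the flagged array was itself 1 of 3 with the same deposited intensity, 148.8, and its array median, 47.1, was the lowest of its set. Under joint quantile normalization its Epor value was 1.49, within the 1.40 to 1.52 of the others, so this flag came with the centring. Hbb-bh1 by 1437990_x_at on the same array was then -2.38, against -2.51 to -2.43 on the others, so it stood less far apart. E17R2 homozygous replicate 2 had Hbb-bh1 by 1450736_a_at at -0.76, against -1.24 to -1.14 on the other E17R2 arrays.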

How the results depend on the processing

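The lower values of Hbb-y, Hbb-bh1 and Hba-x on the R2E17 and R2NB arrays kept their direction and passed the threshold under the alternatives, leaving aside the filter at the array median, which Hbb-y and Hba-x met only through their high E17R2 arrays, with differences from -5.51 to -4.15 for Hbb-y, -1.37 to -0.52 for Hbb-bh1 and -2.21 to -2.03 for Hba-x. The set contrast called 25671 of 45037 probe sets. It called 9346 of 22416 when only those above the array median were tested, and 9909 of 18193 with 1 probe set a gene. In both, fewer member probe sets were tested, and 5 of 7 were called. Under the filter these included Hbb-y and Hba-x, which met it only as said above, so that count adds no support. The share of calls that were lower was 65.8%, with 52.7% under joint quantile normalization and 74.9% with the 75th percentile, and the median difference of all probe sets was -0.02 and -0.23 under these, against -0.13. With Robo2 homozygous arrays only, Hemgn (-1.93, adjusted p 0.06883 by limma) and Alas2 (-0.49, adjusted p 0.1307 by limma) lost their calls. The same held for R2NB against E17R2 homozygous arrays (-1.60 and -0.35). The cause was not tested. Over the alternatives Alas2 had adjusted p-values of 0.005077 to 0.2666 and Hemgn of 0.0007932 to 0.143 by limma. In the E17R2 genotype comparison limma called 0 probe sets, with 2200 at an unadjusted p under 0.05, and 0 to 3 when 1 array was left out (3 without E17R2 wild-type replicate 7), of which 0 were members. The test of the R2E17 against the E17R2 genotype difference called 4 probe sets, 20 with the 75th percentile and 11 with trend and robust settings. R2NB minus R2E17 homozygous called 5, and 3 under quantile normalization. No paired analysis was possible because the groups compared share fewer than 2 replicate numbers.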
